A study of Mus musculus with 12 samples.

Results

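Condensins are ring-shaped complexes that fold chromatin into the compact chromosomes of mitosis, and topoisomerase II passes a DNA duplex through another so that those chromosomes can be shaped and separated. The 10 genes described here encode the 8 subunits of the mouse condensins and both forms of topoisomerase II. They were taken by their Entrez gene IDs from the 27179 genes of a table of read counts, and all 10 were among the 12750 genes that were tested. No pair of them shares a chromosome. In mm10 coordinates Smc2 lies on chromosome 4, Smc4 on 3, Ncapd2 on 6, Ncapg on 5, Ncaph on 2, Ncapd3 on 9, Ncapg2 on 12, Ncaph2 on 15, Top2a on 11 and Top2b on 14. Both condensins hold the ATPases Smc2 and Smc4. Condensin I adds Ncapd2, Ncapg and Ncaph, and condensin II adds Ncapd3, Ncapg2 and Ncaph2. In each complex the kleisin subunit (Ncaph or Ncaph2) closes the ring, and the other pair are HEAT-repeat proteins that bind it. Condensin II is known to be nuclear in interphase, whereas condensin I reaches the chromosomes once the nuclear envelope breaks down. Top2a is the form of topoisomerase II typical of proliferating cells, and Top2b is also made by cells that do not divide.

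RNA-Seq covered 12 libraries from splenic B cells of male C57BL/6 mice, with 2 biological replicates at each of 6 stages. The mice were 6 to 12 weeks old and on a Pep3b background. Naive B cells were sorted as TCRβ-negative cells with B220, IgM and high IgD, and received no treatment. All other stages came from B cells isolated by negative selection and cultured with 25 µg/ml lipopolysaccharide (LPS, a bacterial product that activates B cells). Undivided cells (CD69+ and highest in the dye CellTrace Violet) were sorted after 3, 10 and 33 h, the last just before the first division. Day 4 cells came from a long-term culture set up at a lower cell density. They were sorted into expanded B cells, which carry CD22 but no CD138, and plasmablasts, the antibody-secreting cells with the opposite markers. Between 33 h and day 4, stage and culture density thus cannot be told apart. The stages compare how the transcripts of these genes stand before activation, before division, and in cells that have divided. The labels do not tie a library to an animal or culture, so p-values measure the spread between these libraries.

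Total counts per library ran from 23026619 to 60585587, and the smallest was 3 h replicate 1. The B cell marker Cd79a, part of the antigen receptor, lay between 604 and 2969 CPM (counts scaled to the library total) in all libraries. In plasmablasts the B cell factor Pax5 was at 6.66 and 5.57 CPM, against 435 and 402 in naive libraries, and Cd22, which was used in the day 4 sort, was at 1.36 and 1.14 CPM, against 1576 and 1540.4. The summed CPM of 5 plasmablast markers was 362 to 389 in naive libraries and 16396 to 16909 in plasmablasts. Jchain made 12639 and 11733 CPM of the plasmablast sums. Irf4 was higher at 3 h, at 2588 and 1952 CPM, than in plasmablasts, at 828 and 975, and the other markers were highest in plasmablasts. The naive libraries also held transcripts of other cells, with 122 to 276 CPM summed over 9 myeloid markers and 147 to 197 over 6 erythroid markers, against at most 37.5 and 2.11 at any later stage. The myeloid markers were split. Lyz2 was at 131 and 54.9 CPM in naive libraries and at 0 in expanded ones. Itgam and Adgre1 alone went the other way, with Itgam at 8.74 and 5.08 CPM in naive and 24.3 and 21.8 in expanded libraries. Adgre1 was at 10.7 and 10.6 against 13.1 and 13.4 CPM. The 3 natural killer cell markers summed to 6.19 to 8.12 CPM in naive libraries and to at most 0.395 later. The 8 T cell markers summed to at most 5.21 CPM except in plasmablasts, where they reached 72.4 to 77.6 CPM, of which Cd28 made 64.3 and 71.6, Trac 6.57 and 4.88 and Cd3g 1.02 and 0.683, with Cd3e and Cd8a at 0. In these bulk samples, fewer cells of a type and less RNA per cell cannot be told apart, and the part of the other cell types in the naive values below was not tested.

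The promoters of these genes are shown as a description, and any part of them in the changes below was not tested. RefSeq's table for GRCm38.p6 matched 9 of the 10 members and left out Smc4. The windows below are the 150 bases before the listed start, read 5′ to 3′ along the gene's own strand. They are from Smc2 and Top2a, which rose at 10 h to 33 h, and from Ncaph2 and Top2b, which did not pass the test there. Capitals mark a CCAAT box (CCAAT, or ATTGG on the other strand) or a cell cycle genes homology region (TTTGAA, or TTCAAA on the other strand), a motif known from promoters of genes of late cell cycle stages.
Smc2, chr4:52439071-52439220, plus strand: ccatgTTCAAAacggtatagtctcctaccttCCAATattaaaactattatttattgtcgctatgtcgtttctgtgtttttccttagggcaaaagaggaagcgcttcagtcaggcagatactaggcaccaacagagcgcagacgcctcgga
Top2a, chr11:99024190-99024339, minus strand: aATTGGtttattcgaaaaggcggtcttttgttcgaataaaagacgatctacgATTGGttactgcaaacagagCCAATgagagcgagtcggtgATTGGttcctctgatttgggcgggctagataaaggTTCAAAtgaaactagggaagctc
Ncaph2, chr15:89355569-89355718, plus strand: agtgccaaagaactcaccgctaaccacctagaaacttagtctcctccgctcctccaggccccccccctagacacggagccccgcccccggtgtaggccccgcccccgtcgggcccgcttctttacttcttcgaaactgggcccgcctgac
Top2b, chr14:16365056-16365205, plus strand: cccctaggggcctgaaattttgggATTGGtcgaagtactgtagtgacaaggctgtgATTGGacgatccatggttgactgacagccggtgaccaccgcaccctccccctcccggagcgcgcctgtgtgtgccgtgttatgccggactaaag

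Over the 250 bases before the listed start, the Top2a promoter held 6 CCAAT boxes and 2 matches to TTTGAA, of which the nearer lay 23 to 18 bases before the start. Ncapg and Ncapg2 also held TTTGAA close to the start, at 30 to 25 and 18 to 13 bases before it, and Smc2 held it at 145 to 140 bases. Ncapd2 held TTTGAA at 123 to 118 bases and 3 CCAAT boxes. TTTGAA was thus found in 5 of the 9 members, beside 16.3% of all 27025 promoters of this length, and CCAAT in 5 of 9, beside 34.5%. E2F sites, searched as TTTCGCGC, TTTGGCGC and TTTCCCGC on both strands, were found in Ncapd2 and Ncapg2, 2 of 9 members beside 1.59% of all promoters. Ncapd2's site ended at the base next to the start. Ncaph, Ncaph2 and the promoter of Ncapd3 that was counted held none of these motifs, and no member held a TATA box (TATAAA), which 13% of all promoters held. Without these motifs, Ncaph and Ncapd3 were still called higher at 10 h to 33 h, and Ncaph2 was not. Top2b held CCAAT and was not called there. A match is a stretch of letters and not a known site, and no match says only that these letters are not in this window. The listed start is also not always the outer end of the gene. The Ncapd2 window lies wholly within the gene, which begins at chr6:125192100 on the minus strand. The windows of Ncapg, Ncapg2 and Top2a overlap the first bases of their genes.

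**Figure D1:**
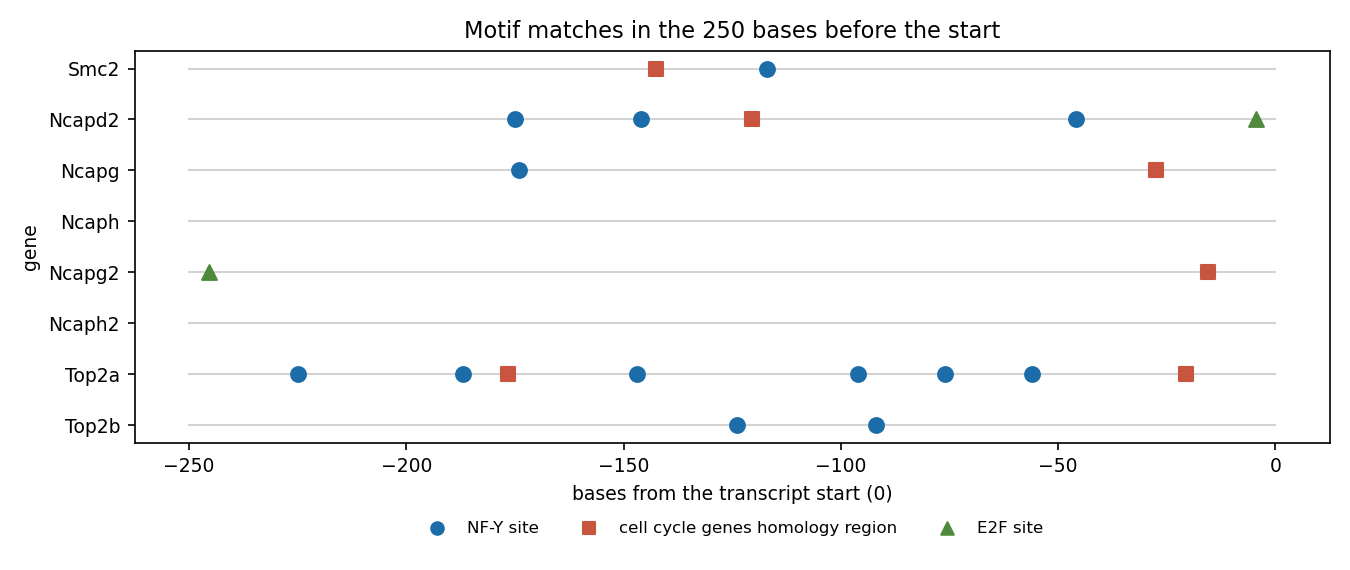
Each row is a gene and the x axis gives the bases from the RefSeq transcript start (at 0). Circles mark matches to the CCAAT box, squares to the cell cycle genes homology region and triangles to E2F sites. The legend names the circles after NF-Y, the factor known to bind CCAAT boxes, but they are letter matches and binding was not measured. Top2a holds 6 circles and 2 squares, the rows of Ncaph and Ncaph2 are empty, and Ncapd3, which has 2 listed starts, is not drawn.

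Levels were compared between genes as RPKM (counts per kilobase of exon length and per unit of library size), here scaled between libraries with TMM. In naive B cells the members spanned from 0.799 RPKM for Ncapg2 to 64.2 RPKM for Top2b. Transcript levels of the subunits were thus uneven before activation, and protein was not measured. Top2b, Ncaph2 and Smc4 led at 64.2, 51.2 and 40.9 RPKM, at the 90.9, 88.6 and 85.6 percentiles of all tested genes. Ncapd2, Top2a, Smc2 and Ncaph followed at 17.3, 9.18, 6.39 and 3.22 RPKM, and Ncapd3, Ncapg and Ncapg2 were lowest at 1.53, 1.23 and 0.799 RPKM. No neighbours in that order overlapped between their libraries. Just before the first division the order had changed. At 33 h Top2a led at 169 RPKM, ahead of Smc4 at 97.1, Ncaph2 at 92.8 and Ncapd2 at 88.9 RPKM, a trio in which each neighbour overlapped the next. Ncaph, Top2b, Smc2 and Ncapg followed at 39.5, 38.4, 37.5 and 31.4 RPKM with overlapping libraries, and Ncapg2 and Ncapd3 were lowest at 16.1 and 10.0 RPKM. In plasmablasts the order was Top2a, Ncaph2, Ncapd2, Smc4, Ncaph, Smc2, Ncapg, Top2b, Ncapg2 and Ncapd3, and only the neighbours Smc2 and Ncapg overlapped.

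**Figure D2:**
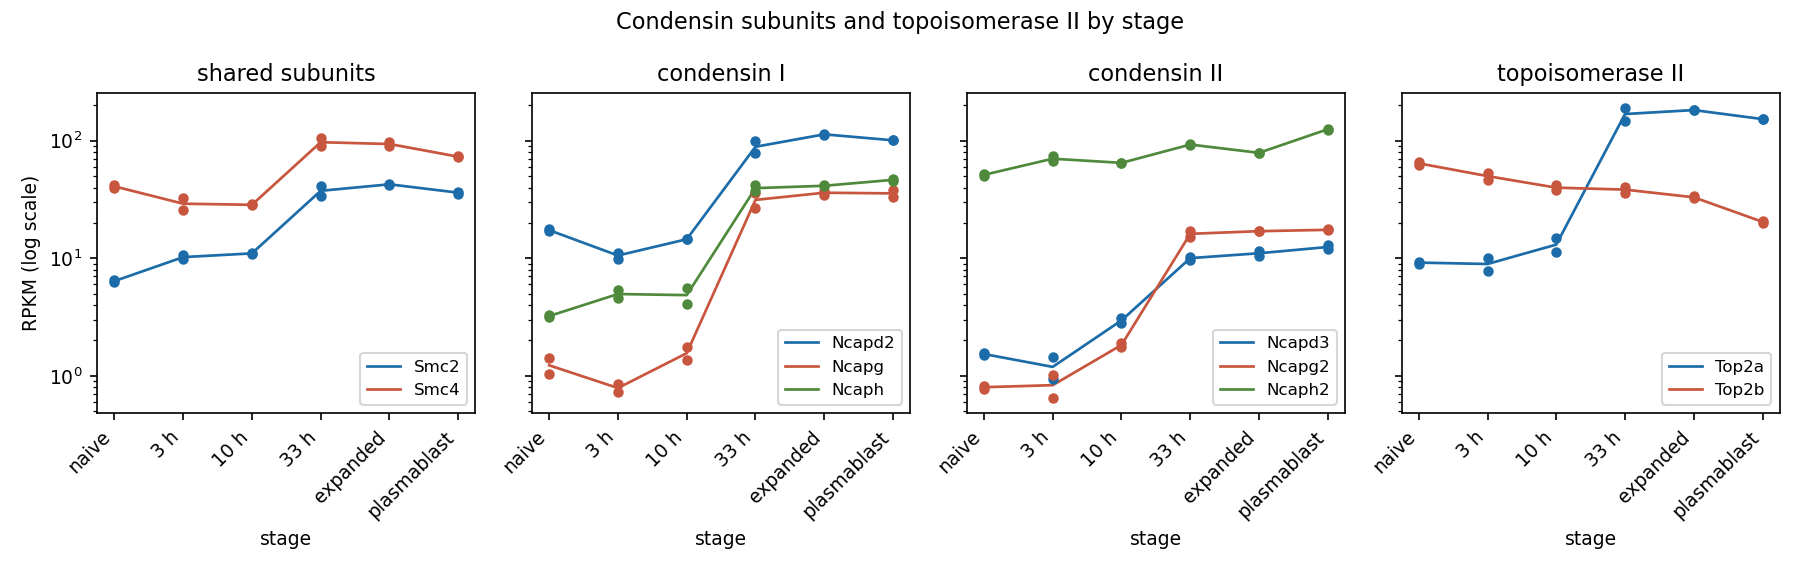
RPKM on a log axis at each of 6 stages, with a point for each of 2 libraries and a line through their means, in panels for the shared subunits, condensin I, condensin II and topoisomerase II. Top2a crosses Top2b between 10 h and 33 h, and Ncaph2 stays above the other subunits of condensin II at every stage.

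Most of these genes rose between 10 h and 33 h, in the hours before the first division. Genes were called differentially expressed by edgeR's glmTreat, which asks whether a fold change exceeds 1.5, at a Benjamini-Hochberg adjusted p under 0.05 over all tested genes. From naive cells to 3 h, 0 of the 10 members were called higher, where 21% of all tested genes were, and 0 were called lower, where 24.3% were. Between 3 h and 10 h, 3 were called higher (17.4% of all tested genes) and 0 lower (13.4%). Between 10 h and 33 h, 8 were called higher (10.1% of all tested genes) and 0 lower (4.45%). Between 33 h and expanded B cells, 0 were called higher (6.94%) and 0 lower (3.66%), and between expanded B cells and plasmablasts 0 were called higher (13.9%) and 0 lower (12.2%). At an unadjusted p under 0.05, glmTreat had 1 member lower at naive to 3 h (Ncapd2) and 1 at expanded to plasmablast (Top2b), and 0 in either direction at 33 h to expanded. DESeq2's Wald test against the same fold called 0 members at these 3 transitions, 2 at 3 h to 10 h and 8 at 10 h to 33 h. The quasi-likelihood F-test, with no fold threshold, called 3 members higher and 5 lower at naive to 3 h (34.7% and 36.3% of all tested genes). From naive B cells to plasmablasts directly, glmTreat called 9 higher (26.6% of all tested genes) and Top2b alone lower (23.4%). The median log2 fold change of the members was -0.20 at naive to 3 h, 0.28 at 3 h to 10 h, 2.19 at 10 h to 33 h, 0.094 at 33 h to expanded and -0.093 at expanded to plasmablast, beside -0.031, 0.018, -0.024, -0.022 and -0.046 for all tested genes. Scaling by library size alone moves the median of all genes by -0.21 at naive to 3 h, 0.33 at 3 h to 10 h, -0.34 at expanded to plasmablast and -0.28 at naive to plasmablast, so small changes at these transitions are relative to the scaling used.

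**Figure D3:**
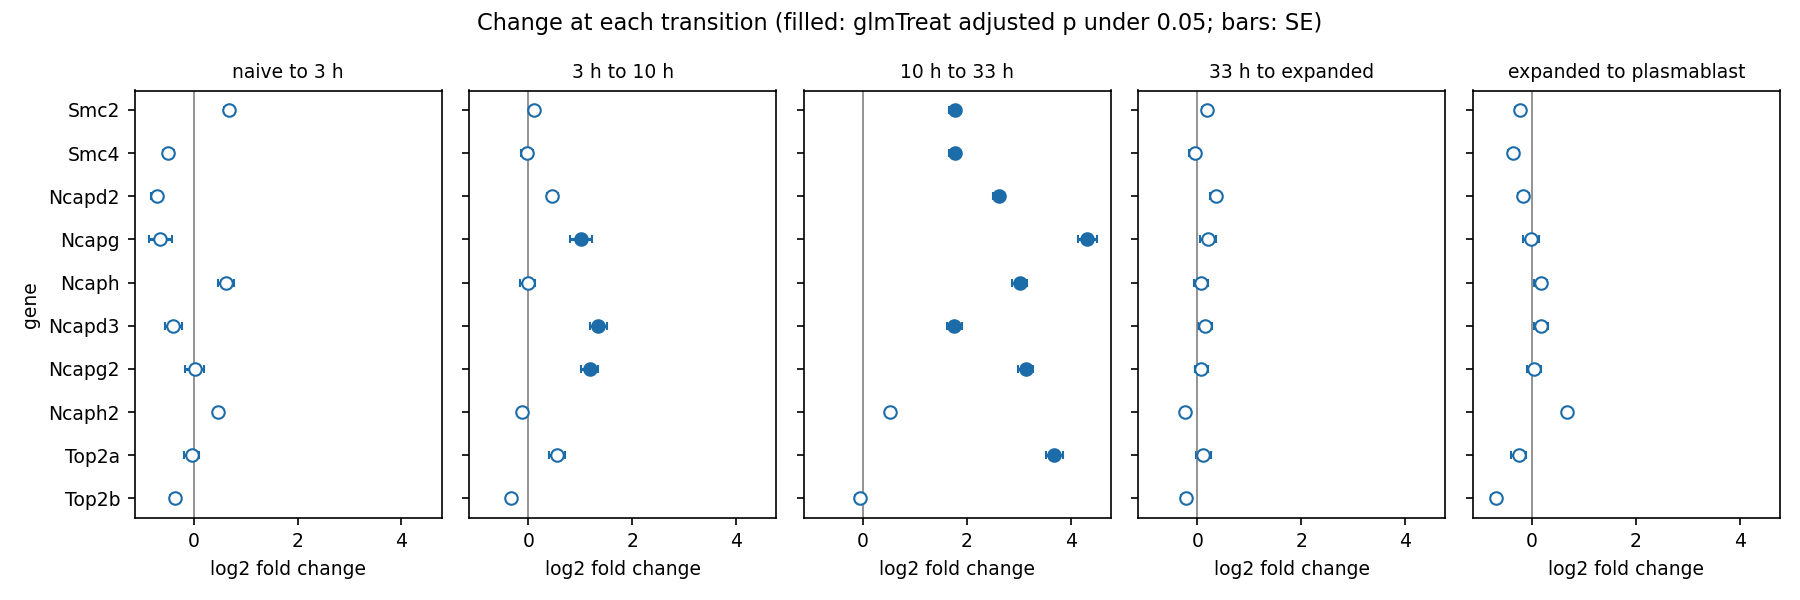
Log2 fold change of each of the 10 genes (rows) at the 5 transitions between consecutive stages (panels), with bars of 1 standard error from the fit to 12 libraries and filled points for glmTreat calls. Filled points appear only in the panels for 3 h to 10 h (Ncapg, Ncapd3 and Ncapg2) and 10 h to 33 h (8 genes, without Ncaph2 and Top2b).

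Smc2 and Smc4, the ATPases that both condensins share, rose alike before the first division but differed in their early course. For each gene the values of replicates 1 and 2 are given in that order. Smc2 was at 6.26 and 6.51 RPKM in naive libraries, 10.6 and 9.83 after 3 h, 11.0 and 11.0 after 10 h, 33.6 and 41.3 after 33 h, 43.2 and 42.0 in expanded cells, and 36.9 and 35.4 in plasmablasts. The naive libraries were the lowest, and all libraries from 33 h on lay between 33.6 and 43.2 RPKM. Smc4, whose introns also hold the microRNA genes Mir15b and Mir16-2, was at 40.0 and 41.8 RPKM in naive libraries, 32.4 and 25.8 after 3 h, 28.9 and 28.1 after 10 h, 89.7 and 105 after 33 h, 97.0 and 90.6 in expanded cells, and 73.8 and 72.5 in plasmablasts. Smc4 was thus already high before activation, and its 3 h and 10 h libraries were all below the naive pair. At 10 h to 33 h the log2 fold change was 1.77 ± 0.10 (SE) for Smc2 and 1.77 ± 0.11 for Smc4, with glmTreat adjusted p of 2.7e-07 and 6.4e-07. At naive to 3 h the log2 fold changes had opposite signs, 0.68 ± 0.10 for Smc2 and -0.49 ± 0.11 for Smc4, and neither passed the test against a fold of 1.5 (adjusted p 0.13 and 0.77). The ratio of Smc4 to Smc2 was 6.39 and 6.43 in naive libraries, 3.05 and 2.63 after 3 h, and between 2.00 and 2.67 in all libraries from 10 h on. The naive ratios stood apart from all later ones. From naive B cells to plasmablasts Smc2 rose by 2.50 ± 0.10 on the log2 scale and Smc4 by 0.84 ± 0.11 (adjusted p 7.9e-10 and 0.0099). The call for Smc4 was lost when libraries were scaled by size alone, where the change was 0.55, and in DESeq2's Wald test.

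All 3 subunits particular to condensin I rose before the first division, Ncapg the most. Ncapg, a HEAT-repeat subunit, was at 1.04 and 1.42 RPKM in naive libraries, 0.844 and 0.728 after 3 h, 1.75 and 1.36 after 10 h, 26.9 and 35.8 after 33 h, 37.4 and 34.8 in expanded cells, and 37.8 and 33.5 in plasmablasts. The last 3 stages overlapped each other and stood far above the first 3. Its log2 fold change at 10 h to 33 h was 4.32 ± 0.18 (glmTreat adjusted p 4.4e-09), the highest of the members, on 312 and 190 counts at 10 h and 5777 and 4645 after 33 h. The smaller rise at 3 h to 10 h, 1.01 ± 0.21, passed the test (adjusted p 0.034) on 56 and 82 counts at 3 h. That call was lost in 6 of 23 alternatives, among them the fits without 3 h replicate 1, without 3 h replicate 2 and without 10 h replicate 1, and the adjusted p ranged from 0.0012 to 0.38.

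Ncapd2, the other HEAT-repeat subunit of condensin I, was at 17.0 and 17.7 RPKM in naive libraries, 11.2 and 9.93 after 3 h, 14.5 and 14.6 after 10 h, 78.1 and 99.7 after 33 h, 113 and 114 in expanded cells, and 101 and 101 in plasmablasts. It dipped below the naive level at 3 h in both libraries. The log2 fold change there was -0.72 ± 0.11 and did not pass glmTreat (adjusted p 0.081), though it did with library size alone, with at least 10 counts in every library, and without 3 h replicate 1 or either 33 h library, and the quasi-likelihood F-test, with no fold threshold, called it. Ncapd2 rose by 2.61 ± 0.11 at 10 h to 33 h (adjusted p 6.6e-09). Ncaph, the kleisin of condensin I, was at 3.18 and 3.27 RPKM in naive libraries, 5.34 and 4.58 after 3 h, 5.63 and 4.08 after 10 h, 37.0 and 42.0 after 33 h, 41.8 and 41.0 in expanded cells, and 47.1 and 45.9 in plasmablasts. Ncaph was the subunit of condensin I with its highest level in plasmablasts. It rose by 3.02 ± 0.14 at 10 h to 33 h (adjusted p 9.7e-09), while its change at naive to 3 h, 0.61 ± 0.15, did not pass (adjusted p 0.34). At 33 h, replicate 2 was above replicate 1 for 9 of the 10 members, all but Top2b, where 46.9% of all tested genes were higher in it, and at 3 h replicate 2 was below replicate 1 for all but Ncaph2.

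The subunits particular to condensin II followed 2 courses. Ncapd3 and Ncapg2, its HEAT-repeat subunits, rose in successive steps from low levels. Ncapd3 was at 1.498 and 1.56 RPKM in naive libraries, 1.45 and 0.931 after 3 h, 3.08 and 2.83 after 10 h, 9.72 and 10.3 after 33 h, 10.5 and 11.5 in expanded cells, and 12.1 and 12.9 in plasmablasts. Ncapg2 was at 0.823 and 0.775 RPKM, 1.02 and 0.641 after 3 h, 1.90 and 1.76 after 10 h, 15.1 and 17.2 after 33 h, 17.0 and 17.0 in expanded cells, and 17.6 and 17.3 in plasmablasts. Both were above all naive and 3 h libraries by 10 h. The log2 fold changes at 3 h to 10 h were 1.35 ± 0.16 for Ncapd3 and 1.18 ± 0.16 for Ncapg2 (glmTreat adjusted p 0.00029 and 0.0018). These calls held in all 23 alternatives, with adjusted p of at most 0.022 and 0.048. Ncapd3 rose by a further 1.76 ± 0.14 and Ncapg2 by 3.14 ± 0.15 at 10 h to 33 h (adjusted p 8e-06 and 9.9e-09).

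Ncaph2, the kleisin of condensin II, was high throughout. It was at 50.4 and 52.1 RPKM in naive libraries, 67.1 and 73.6 after 3 h, 64.5 and 65.1 after 10 h, 92.2 and 93.4 after 33 h, 78.6 and 79.2 in expanded cells, and 124 and 126 in plasmablasts. Its libraries fell into separate levels at each stage, but the whole span from lowest to highest stage was 2.44-fold, against 10.5-fold for Ncapd3 and 21.8-fold for Ncapg2. Its log2 fold change at 10 h to 33 h was 0.52 ± 0.075, which did not pass glmTreat (adjusted p 1) but was above 0 by the quasi-likelihood F-test (adjusted p 0.00012). At expanded to plasmablast the change was 0.67 ± 0.075, again short of glmTreat (adjusted p 0.16) and past the F-test (adjusted p 7.3e-06), and with only the 4 libraries of that comparison glmTreat did call it. From naive B cells to plasmablasts Ncaph2 rose by 1.29 ± 0.077 (adjusted p 2.7e-07). The Ncaph2 exons share 19.8% of their bases with the gene Sco2 and 12.7% with Tymp, both on the opposite strand in the GENCODE annotation. Whether the counting used strand is not given in the sources used here, so reads from the shared bases cannot be told apart. Sco2 was listed with 0 or 1 counts in every library, and Tymp stayed between 1.39 and 2.29 RPKM. These values come from the same counting, so they set no bound on the reads from the shared bases.

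Within a library the transcript levels of the condensin II subunits were less even than those of the condensin I subunits. The highest over the lowest subunit was 12.5 to 16.4 for condensin I and 61.2 to 67.2 for condensin II in naive libraries, and 2.66 to 3.02 and 9.84 to 10.3 in plasmablasts. Ncaph2 was the highest subunit of condensin II in all 12 libraries, and its ratio to Ncapg2 was 61.2 and 67.2 in naive libraries, 65.7 and 115 after 3 h, 34.0 and 37.0 after 10 h, 6.10 and 5.44 after 33 h, 4.62 and 4.67 in expanded cells, and 7.05 and 7.31 in plasmablasts. Set against each other by position in the ring, Ncapd2 exceeded Ncapd3 in every library, by 4.69 to 11.4 times. Ncaph stayed below Ncaph2 in every library, at 0.0623 to 0.0872 of it up to 10 h and 0.363 to 0.531 from 33 h on. Ncapg and Ncapg2 were close until 10 h, with ratios from 0.773 to 1.83, and Ncapg was 1.78 to 2.19 times Ncapg2 from 33 h on.

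The mean log2 RPKM of the 3 subunits was used to set the complexes side by side. Condensin I minus condensin II was -0.048 and 0.12 in naive libraries, -0.33 and -0.14 at 3 h, and -0.47 and -0.67 at 10 h. It was 0.84 and 1.06 after 33 h, 1.21 and 1.13 in expanded cells, and 0.92 and 0.82 in plasmablasts. All 6 libraries from 33 h on lay above all 6 earlier ones. From 33 h on condensin I was above condensin II also by summed RPKM, by CPM and by the median subunit, whereas before 33 h the sign depended on the measure. By the median subunit condensin I was higher by 2.09 at 3 h, and by summed RPKM it was lower by 2.15 on the log2 scale, with Ncaph2 the highest subunit in each sum of condensin II. The shared subunits minus the complex-specific ones gave 2.02 and 1.99 in naive libraries, 2.17 and 2.24 after 3 h, 1.54 and 1.69 after 10 h, 0.78 and 0.84 after 33 h, 0.81 and 0.74 in expanded cells, and 0.35 and 0.33 in plasmablasts. The excess of the shared subunits was thus smaller from 10 h on than before. At expanded to plasmablast the mean log2 RPKM of the shared subunits went from 5.98 to 5.68. That of condensin I went from 5.79 to 5.78 and that of condensin II from 4.62 to 4.91. Within condensin II, Ncaph2 changed most, by 0.67 on the log2 scale, against 0.18 for Ncapd3 and 0.038 for Ncapg2. By summed RPKM the excess of the shared subunits was at most 0.47 at any stage and below 0 from 33 h on. With 2 libraries against 2, no exact permutation test of such a ratio could pass 0.05, and none was made.

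**Figure D4:**
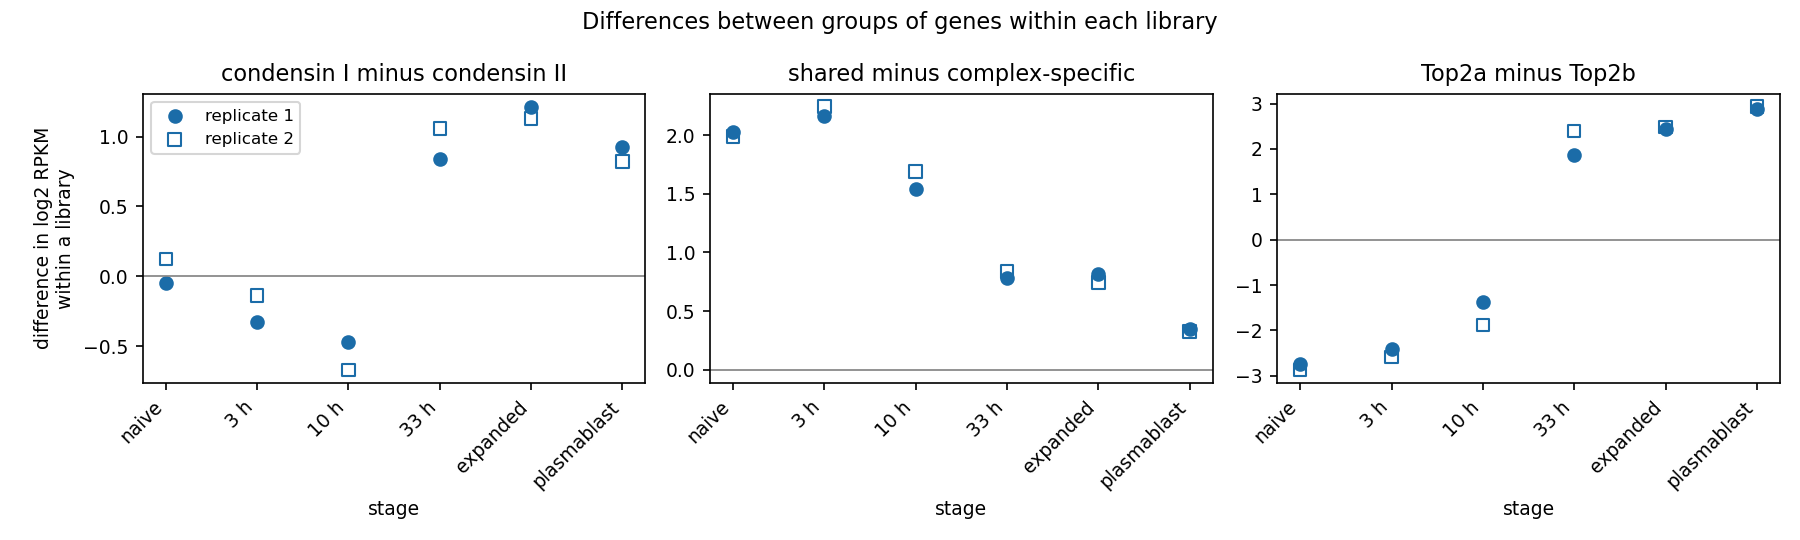
Difference in log2 RPKM within each library at the 6 stages, for condensin I minus condensin II (means of 3 subunits each), shared minus complex-specific subunits, and Top2a minus Top2b, with filled circles for replicate 1 and open squares for replicate 2. The left and right panels pass from at or below 0 before 33 h to above 0 from 33 h on, apart from a naive library at 0.12 on the left, and the middle panel falls from about 2 to 0.35 and 0.33.

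The forms of topoisomerase II moved apart. Top2a was at 9.35 and 9.01 RPKM in naive libraries, 10.1 and 7.79 after 3 h, 14.8 and 11.4 after 10 h, 148 and 189.9 after 33 h, 184 and 181 in expanded cells, and 154 and 152 in plasmablasts. Every library up to 10 h lay far below every later one. The log2 fold change at 10 h to 33 h was 3.69 ± 0.16 (glmTreat adjusted p 8.3e-09), and that at 3 h to 10 h was 0.55 ± 0.15 and did not pass (adjusted p 0.59). Top2b was at 62.7 and 65.8 RPKM in naive libraries, 53.3 and 46.8 after 3 h, 38.0 and 41.7 after 10 h, 40.6 and 36.1 after 33 h, 33.8 and 32.3 in expanded cells, and 20.9 and 19.9 in plasmablasts. Its mean was lower at each stage than at the stage before, with overlap only between 10 h and 33 h, except that scaling by library size alone gave a change of 0.0071 at 3 h to 10 h, and the fits without 33 h replicate 2 and without 10 h replicate 2 gave 0.034 and 0.016 at 10 h to 33 h. No single transition passed glmTreat. The largest fall, -0.69 ± 0.094 at expanded to plasmablast, had an adjusted p of 0.14, and the F-test gave 3.5e-05. Under library size alone that fall was -1.03 and was called. From naive B cells to plasmablasts Top2b changed by -1.65 ± 0.096 (adjusted p 6.7e-08) and Top2a by 4.06 ± 0.16 (adjusted p 5.7e-10). The ratio of Top2a to Top2b went from 0.149 and 0.137 in naive libraries to 0.389 and 0.272 after 10 h, 3.64 and 5.26 after 33 h, and 7.35 and 7.63 in plasmablasts. Top2b shares 12.3% of its exon bases with Rarb on the other strand, and Ncapg shares 13.4% with Lcorl. Rarb had at most 15 counts in any library, and Lcorl was lowest at 10 h and 33 h, at 0.597 to 0.688 RPKM, and highest in plasmablasts, at 2.54 to 2.57 RPKM. In naive and 3 h libraries Lcorl had 215 to 309 counts, more than Ncapg in each. The counts of Rarb and Lcorl also set no bound on the reads from the shared bases.

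On day 4, in plasmablasts, Ncaph, Ncapd3, Ncapg2 and Ncaph2 had their highest mean, and Ncapg was at 98.8% of its own, Ncapd2 at 89.0%, Smc2 at 84.9%, Top2a at 83.8% and Smc4 at 75.3%. From expanded cells Ncaph, Ncapd3 and Ncapg2 changed by only 0.17 ± 0.13, 0.18 ± 0.14 and 0.038 ± 0.13 on the log2 scale. None of these passed the F-test (adjusted p 0.28, 0.29 and 0.83), and each changed sign with library size alone. At expanded to plasmablast, Smc4 changed by -0.36 ± 0.11, Top2a by -0.26 ± 0.14 and Smc2 by -0.24 ± 0.097 on the log2 scale, and none passed glmTreat (adjusted p 1 for each). The F-test gave Smc4 an adjusted p of 0.012 there.

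A list of 26 genes, here called condensation partners, joins genes tied to condensin or chromosome condensation with general mitosis genes such as Anln and Bub1. Of the 26, 24 were tested, since Kif4 and Phf8 lie on the X chromosome, which was left out. At naive to 3 h 1 was called higher and 7 lower, where 21% and 24.3% of all genes tested were, and the median log2 fold change was -0.81. Rcc1, the exchange factor that charges Ran at chromatin, rose from 9.26 to 48.5 RPKM, while Aurkb, the kinase of the chromosomal passenger complex, fell from 6.64 to 1.45 RPKM and the mitotic cyclin Ccnb2 from 2.90 to 0.804 RPKM. At 3 h to 10 h 11 were called higher and 0 lower (median 0.97), where 17.4% and 13.4% of all genes tested were. The largest rises were those of Sgo2a, a protector of centromeric cohesion, at 2.19 ± 0.27 and the cyclin Ccnb1 at 2.16 ± 0.57. At 10 h to 33 h 21 were called higher and 0 lower, where 10.1% and 4.45% of all genes tested were, and the list's median was 3.76. The mitotic kinase Plk1 rose by 5.07 ± 0.32 on the log2 scale, from 2.17 to 73.4 RPKM, and Mki67, which coats mitotic chromosomes, by 4.59 ± 0.17, from 4.27 to 103 RPKM. At 33 h to expanded Ccnb2 alone was called higher, from 32.9 to 93.7 RPKM, though 5 genes were without 33 h replicate 2. Of all genes tested, 6.94% were called higher and 3.66% lower at 33 h to expanded, and 13.9% and 12.2% at expanded to plasmablast. At expanded to plasmablast 2 of the list were called lower. Rcc1 went from 61.3 to 26.7 RPKM and Akap8, an anchoring protein linked to condensin recruitment, from 26.4 to 15.3 RPKM. Without 3 h replicate 1 or 3 h replicate 2, 5 rather than 11 genes were called higher at 3 h to 10 h, and without 10 h replicate 1, 7 were. Leaving out 3 h replicate 2 left 4 rather than 7 called lower at naive to 3 h.

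Of 23 listed genes of the other SMC complexes, cohesin and SMC5/6, 20 were tested. At 10 h to 33 h 4 were called higher and 0 lower, where 10.1% and 4.45% of all genes tested were, and the list's median was 0.17. The largest rises were those of Espl1 (separase, which cuts cohesin) from 1.21 to 22.7 RPKM and Esco2 (an acetyltransferase of cohesin in S phase) from 0.790 to 14.6 RPKM. At naive to 3 h 3 were called higher and 2 lower, where 21% and 24.3% of all genes tested were. Wapl, which releases cohesin from DNA, rose from 17.2 to 35.8 RPKM and the SMC5/6 subunit Nsmce3 from 18.6 to 35.7 RPKM. Nsmce1, of the same complex, fell from 88.1 to 35.2 RPKM and Smchd1, an SMC-like protein of the inactive X, from 52.9 to 29.1 RPKM. At 3 h to 10 h only Espl1 (1.43 ± 0.22) and Cdca5 (sororin, which holds cohesin on DNA, 1.25 ± 0.17) were called, both higher. Of all genes tested, 17.4% were called higher there and 13.4% lower. The shares were 6.94% and 3.66% at 33 h to expanded, and 13.9% and 12.2% at expanded to plasmablast. On day 4 the list's calls were Nsmce1 and Pds5b, a cohesin regulator. Nsmce1 was lower at 33 h to expanded by -0.85 ± 0.10 (glmTreat adjusted p 0.024). Pds5b was lower at expanded to plasmablast by -0.77 ± 0.099 (adjusted p 0.047). DESeq2 called neither, and both calls were lost with at least 10 counts in every library and without any 1 of the 4 day 4 libraries. The Pds5b call was also lost with the replicate block.

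Of the other topoisomerases and the genes that repair or modify topoisomerase-DNA complexes, 18 of 18 were tested. At 10 h to 33 h 4 were called higher and 0 lower, where 10.1% and 4.45% of all genes tested were, and the list's median was 0.100. Rmi2 rose from 3.50 to 17.1 RPKM and the helicase Blm from 3.89 to 11.5 RPKM, and the products of both work with topoisomerase III. At naive to 3 h 5 were called higher and 0 lower, where 21% and 24.3% of all genes tested were. Rbbp8 (CtIP, which starts the resection of DNA ends) rose from 5.79 to 25.3 RPKM and returned to 6.62 at 10 h, and Zfp451, a SUMO ligase that acts on trapped topoisomerase II, rose from 6.89 to 19.2 RPKM and returned to 7.80. At 3 h to 10 h 4 were called higher and 3 lower, where 17.4% and 13.4% of all genes tested were. Rmi2 at 2.20 ± 0.17 and the mitochondrial Top1mt at 1.17 ± 0.19 had the largest rises. At 33 h to expanded Top1, which cuts a single strand of DNA, was higher at 153.5 against 82.3 RPKM. The SUMO protease Senp6 was higher at 33.8 against 18.8 RPKM, while Rmi2 was lower by -1.08 ± 0.13. Of all genes tested, 6.94% were called higher there and 3.66% lower. DESeq2 called 0 of the list higher there, and so did the fits without either expanded library or without 33 h replicate 1. No gene of this list was called at expanded to plasmablast by glmTreat or by DESeq2, and 0 had an unadjusted p under 0.05. The F-test, with no fold threshold, called 8 lower there. Of all genes tested, glmTreat called 13.9% higher and 12.2% lower at this transition, and the F-test 27.2% and 29.7%.

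**Figure D5:**
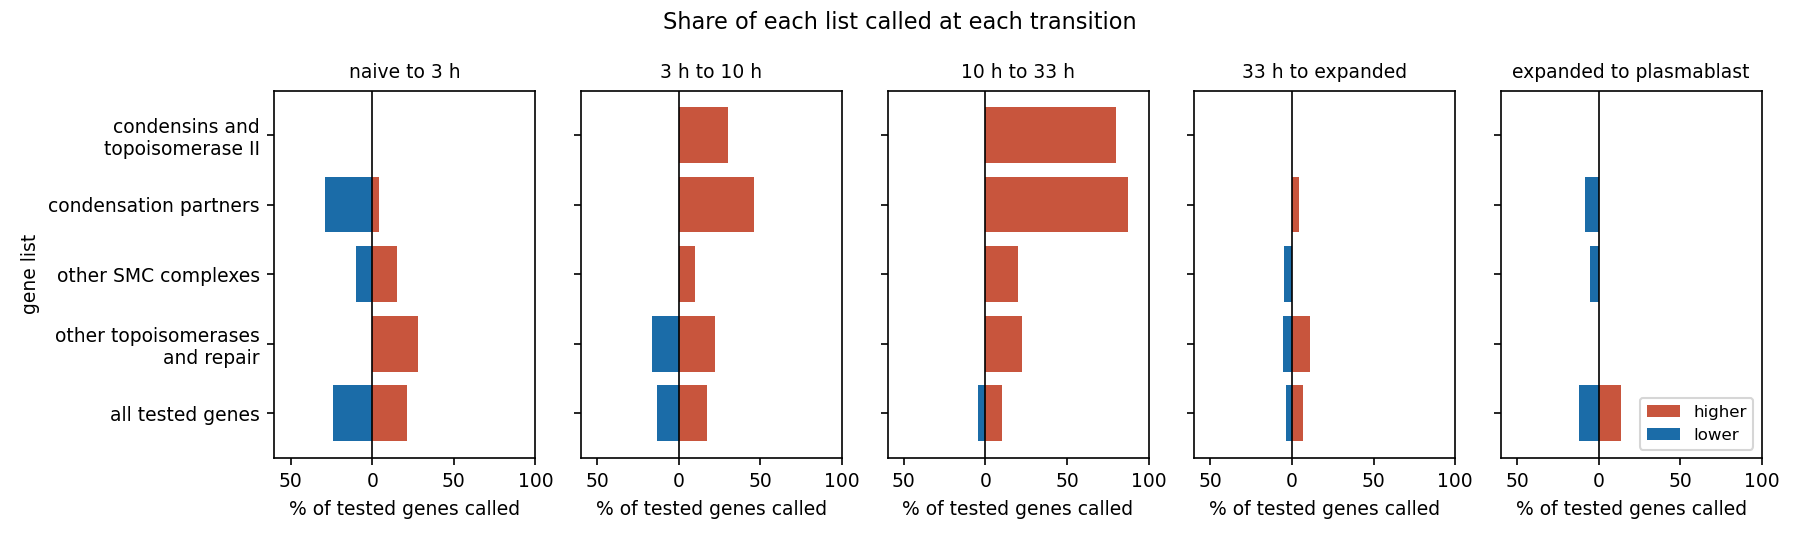
Percent of the tested genes of each list called higher (red, to the right) or lower (blue, to the left) by glmTreat at each of the 5 transitions, with all 12750 tested genes in the bottom row. At 10 h to 33 h 8 of 10 members and 21 of 24 condensation partners were called higher, beside 4 of 20, 4 of 18 and 10.1% of all tested genes. The condensation partners also hold general mitosis genes.

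Across the 12 libraries, the genes whose log2 CPM followed each member most closely are given as a description, since the libraries share their stages. Ncapd2 was most like Kif22, Cdca3 and Kif18b (Pearson's r 0.999, 0.997 and 0.997), and Ncapg like Nuf2, Stil and Kif18b (0.997 each). Top2a was most like Cdca2, Shcbp1 and Tpx2 (0.998, 0.997 and 0.997) and Ncapg2 like Cdca5, Sgo1 and Ticrr (0.998, 0.997 and 0.993). Ncapd3 was most like Cdca5, Ncapg2 and Sgo1 (0.991 each), the only case in which a member was among the 3 closest genes of another. Smc2 was most like Ccne2, H2ax and Cdca8 (0.995, 0.994 and 0.991), Smc4 like Arhgap11a, H2bc9 and Knl1 (0.994, 0.990 and 0.989), and Ncaph like Ccne2, Diaph3 and Cdca2 (0.995, 0.993 and 0.991). Ncaph2 was most like Dclre1b, Coro2a and Pradc1 (0.969, 0.968 and 0.959), and Top2b like Map3k14, Arhgef3 and Sema5a (0.991, 0.989 and 0.989). Ncaph2 and Top2b had 0 other members among their 100 closest genes, where the remaining 8 had between 2 and 5. Between Ncaph2 and Top2b the r was -0.91.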

How the data were processed

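The deposited values are counts per Entrez gene. The authors sequenced TruSeq libraries of polyA RNA on an Illumina NextSeq, used CASAVA 1.8.2, aligned the reads to mm10 and counted them with featureCounts, with no normalization, and deposited the exon lengths beside the counts. The 12 files of single samples equalled the series table. Unmatched IDs and mitochondrial, ribosomal RNA, X, Y and variable immunoglobulin genes were removed, leaving 23700 genes that held 84% to 90.6% of counts, of which filterByExpr kept 12750. R 4.3.3 was used with edgeR 4.0.16 (TMM, robust quasi-likelihood fit of the earlier method, glmTreat at 1.5-fold), all 12 libraries sharing an estimate of the spread. RPKM used deposited lengths and TMM-scaled library sizes, and log2 CPM a prior count of 2. limma 3.58.1 was loaded with edgeR, and DESeq2 1.42.0 served as an alternative. Figures were drawn with matplotlib. The steps were tested on simulated data with 200 changed genes at 10 h to 33 h. Of changes of 2-, 3-, 4- and 8-fold, 38%, 82%, 86% and 98% were called, and 1 unchanged gene was called.

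The members, gene lists and motifs were chosen with earlier results of these data known. Named genes are all members, the 2 largest called rises and falls of each list at each consecutive transition, and the 3 genes most correlated with each member. Promoters are RefSeq's for GRCm38.p6, with the first promoter listed for a gene counted, and overlaps come from GENCODE. Alternatives tried were scaling by DESeq2 size factors or by library size, the Wald test of DESeq2, other filters on low counts, other dispersion settings, a replicate block, fits to 4 libraries, keeping the removed genes, no fold threshold, and leaving out each library. Hi-C data were not analysed here. The summed B cell marker list is not reported here.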

Additional observations from a re-analysis of the deposited data

How the results depend on the processing

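Of 1380 log2 fold changes of the members under the alternatives, 1314 kept their sign and their side of the threshold, 8 lost a call, 26 gained one and 32 changed sign, all of these at changes that were not called. The 8 calls at 10 h to 33 h held in all 23 alternatives. The causes of the changes below were not tested.

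With no fold threshold (the F-test), members called higher and lower were 3 and 5 at naive to 3 h, 5 and 1 at 3 h to 10 h, 1 and 1 at 33 h to expanded, and 1 and 2 at expanded to plasmablast. Of all genes tested it called 34.7% and 36.3%, 32.1% and 30.2%, 18.5% and 21.2%, and 27.2% and 29.7% at these transitions. For condensation partners they were 3 and 15, 20 and 1, 7 and 2, and 2 and 6 at the same transitions. Among the other SMC complexes they were 8 and 3 at naive to 3 h, 3 and 6 at 3 h to 10 h, 9 higher and 2 lower at 10 h to 33 h, 2 and 2 at 33 h to expanded, 2 and 6 at expanded to plasmablast, and 7 and 6 at naive to plasmablast. For the other topoisomerases and repair the F-test gave 8 and 5 at naive to 3 h, 7 and 5 at 3 h to 10 h, 4 lower at 10 h to 33 h, 7 lower at 33 h to expanded, 8 lower at expanded to plasmablast, and 9 and 6 at naive to plasmablast. Of all genes tested it called 23.2% higher and 22.2% lower at 10 h to 33 h, and 38.2% and 35.9% at naive to plasmablast.

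With library size alone, 1 member was lower at naive to 3 h, 5 were higher at 3 h to 10 h and 1 was lower at expanded to plasmablast. Condensation partners then had 12 lower at naive to 3 h, 18 higher at 3 h to 10 h and 6 lower at expanded to plasmablast, the other SMC complexes 1 higher at naive to 3 h, 6 lower at expanded to plasmablast and 4 lower at naive to plasmablast, and the other topoisomerases 2, 4 and 5 lower at naive to 3 h, expanded to plasmablast and naive to plasmablast. Signs that changed were those of Ncapg2 at naive to 3 h (-0.20), of Smc4 (0.31), Ncaph (0.31), Ncaph2 (0.21) and Top2b (0.0071) at 3 h to 10 h, and of Ncaph (-0.17), Ncapd3 (-0.16) and Ncapg2 (-0.30) at expanded to plasmablast.

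DESeq2 size factors gave 1 condensation partner and 2 other SMC genes lower at 3 h to 10 h, and 1 and 0 lower at expanded to plasmablast, with Ncapg at 0.014 there. DESeq2's Wald test gave 2 other topoisomerases higher at 3 h to 10 h and 0 at 33 h to expanded, 0 other SMC genes lower at 33 h to expanded, 1 condensation partner and 0 other SMC genes lower at expanded to plasmablast (Ncapg 0.014), and 1 other SMC gene lower at naive to plasmablast. With at least 10 counts in every library, 1 member was lower at naive to 3 h (Ncapg2 was at -0.062 there), 0 other SMC genes were lower at 33 h to expanded or at expanded to plasmablast, 1 condensation partner was lower at the latter, and Ncapg was at 0.0025. With no filter on low counts, 11 condensation partners were lower at naive to 3 h (Ncapg2 at -0.0070), and 1 other topoisomerase was higher at 33 h to expanded. The newer quasi-likelihood method put Ncapg2 at -0.00031 at naive to 3 h. With the removed genes kept, Ncaph was at 0.0034 at 3 h to 10 h, and 0 and 4 other SMC genes were lower at expanded to plasmablast and naive to plasmablast. With only the 4 libraries compared, 1 member was higher at expanded to plasmablast (Ncapg 0.0056) and 2 other topoisomerases at 3 h to 10 h.

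Leaving out a library in turn, 0 to 1 members were lower at naive to 3 h, the 1 being Ncapd2 without 3 h replicate 1 or either 33 h library. Condensation partners ranged over 1 to 2 higher and 4 to 10 lower at naive to 3 h, 5 to 13 higher and 0 to 1 lower at 3 h to 10 h, 1 to 5 higher at 33 h to expanded (5 without 33 h replicate 2) and 1 to 3 lower at expanded to plasmablast. Other SMC genes ranged over 0 to 2 lower at 3 h to 10 h, 0 to 1 at 33 h to expanded and at expanded to plasmablast, and 1 to 3 at naive to plasmablast. Other topoisomerases ranged over 0 to 1 lower at naive to 3 h, 0 to 2 higher and 1 to 2 lower at 33 h to expanded, and 1 to 2 lower at naive to plasmablast. Log2 fold changes spanned -0.31 to 0.32 for Ncapg2 and -0.23 to 0.11 for Top2a at naive to 3 h, -0.17 to 0.14 for Smc4 and -0.27 to 0.20 for Ncaph at 3 h to 10 h, and -0.14 to 0.034 for Top2b at 10 h to 33 h. At 33 h to expanded they spanned -0.16 to 0.060 for Smc4, -0.023 to 0.16 for Ncaph, -0.017 to 0.16 for Ncapg2 and -0.060 to 0.30 for Top2a, and at expanded to plasmablast -0.082 to 0.094 for Ncapg.

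Replicate numbers are not said to pair the libraries, and the deviations of same-numbered libraries correlated at only -0.14 to 0.084. With a replicate block 0, 3, 8, 0, 0 and 9 members were called higher at the 6 comparisons, as without it, 1 other SMC gene was lower at 3 h to 10 h and 0 at expanded to plasmablast, and calls over all genes at 3 h to 10 h numbered 3903 against 3932. A pairing with the 10 h numbers exchanged, added after seeing the data, gave 3 members higher, 0 lower and 3941 calls.

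Naive, 3 h, 10 h, 33 h, expanded and plasmablast differences of condensin I minus condensin II were -0.44, -0.70, -1.04, 0.48, 0.70 and 0.40 with CPM, -1.30, -2.15, -1.74, 0.42, 0.84 and 0.24 with summed RPKM, and 1.07, 2.09, 0.70, 1.29, 1.284 and 1.41 with the median subunit. Those of shared minus specific subunits were 2.16, 2.36, 1.77, 0.96, 0.93 and 0.49 with CPM, 0.47, 0.19, 0.050, -0.035, -0.067 and -0.62 with summed RPKM, and 2.86, 2.84, 2.23, 1.25, 1.25 and 0.85 with the median. Top2a minus Top2b with CPM was -2.92 in naive, 2.36 in expanded and 2.79 in plasmablast libraries.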
